A study of Homo sapiens with 6 samples.

Results

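The immune checkpoint ligands described here are 9 of the 23340 genes measured in the series, chosen by name: CD274, PDCD1LG2, CD276, VTCN1, PVR, PVRL2, LGALS9, TNFRSF14 and CD47. RNA of 3 human cell lines was sequenced, with 2 libraries per line, 1 titled as 25M reads and 1 as deeper. The libraries labelled as MDA-MB-436, a breast adenocarcinoma line, carry no treatment label, and the line was grown in L-15 medium with fetal bovine serum. Those labelled as HT-29, a colon adenocarcinoma line grown in McCoy's 5A medium with fetal bovine serum, carry a label of stimulation for 24 hours by interferon gamma (IFN-γ), at a dose of 200 U per ml. MCF10A, a non-tumorigenic mammary epithelial line, was grown in DMEM/F12 with horse serum, EGF, hydrocortisone, cholera toxin and insulin and serves as the reference. Each line is a single established line in its own medium, and no HT-29 cells without IFN-γ were analysed here, so line, medium and IFN-γ cannot be told apart.

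Checkpoint ligands are proteins on the cell surface, or secreted, that restrain T cells, natural killer cells or macrophages by binding inhibitory receptors on them. PD-L1, encoded by CD274, and PD-L2, encoded by PDCD1LG2, bind PD-1; PVR and PVRL2 bind TIGIT on T cells and natural killer cells, and CD47 binds SIRPα on macrophages. IFN-γ acts through the kinases JAK1 and JAK2 and induces the factor IRF1, which is known to drive CD274 transcription. Tumour cells of many origins carry such ligands, and CD274 is the best studied of them.

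The marker genes went against 2 of the labels. KRT20, an intestinal keratin, stood at 29900 and 30880 normalised read counts in the 25M and the deeper MDA-MB-436-labelled library, at 0 and 0.547 in the HT-29-labelled ones, and at 0 and 1.47 in MCF10A. VIL1, which encodes the brush border protein villin, stood at 2055 and 2198 in the MDA-MB-436-labelled libraries and at 0 in the other 4. VIM, which encodes the mesenchymal filament protein vimentin, stood at 16.5 and 7.39 in the MDA-MB-436-labelled libraries, at 36599 and 35267 in the HT-29-labelled ones, and at 25901 and 26246 in MCF10A. The intestinal markers were thus high under the breast label and near 0 under the colon label. The summed level of 5 intestinal markers was 63812 and 67208 in the MDA-MB-436-labelled libraries, 3.00 and 5.47 in the HT-29-labelled ones, and 1.87 and 3.93 in MCF10A. Basal mammary markers followed the MCF10A label, with KRT5 at 124 and 3.70 in the MDA-MB-436-labelled libraries, 236 and 77.2 in the HT-29-labelled ones, and 424101 and 416184 in MCF10A. Whether the labels of the HT-29 and MDA-MB-436 libraries were exchanged was not tested; the libraries were kept as labelled, and each direction below holds for the labels. Recovered totals ran from 16.7 to 69.5M reads, and the T cell markers CD3D and CD2 had 0 reads in all 6 libraries. A further T cell marker, CD3E, had 3 reads in MCF10A and 0 in the other lines.

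Of the 9 genes, 8 passed the filter of at least 10 normalised counts in at least 2 libraries, and VTCN1 did not. All 8 tested genes differed from MCF10A in the MDA-MB-436-labelled libraries, 6 higher and 2 lower. Of all 15638 genes tested, 49.2% differed in this comparison, 25.6% higher and 23.7% lower. Against MCF10A 3 were higher and 1 was lower in the HT-29-labelled libraries, beside 28.4% and 18.1% of all genes and 46.5% in both directions. Between the HT-29-labelled libraries and the MDA-MB-436-labelled ones, 2 were higher and 5 lower, where 29.9% and 23.5% of all genes were called in these directions and 53.4% in all. A gene was called at an adjusted p below 0.05 by limma, Benjamini-Hochberg adjusted over all genes tested, and a log2 fold change of 1 or more in either direction. The median log2 fold change of the 8 tested genes was 2.81 in the first comparison, 0.62 in the second and -3.52 in the third, beside medians of 0, 0.13 and 0.09 over all genes tested. The comparisons share libraries pairwise, and both comparisons with MCF10A share its libraries.

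**Figure D1:**
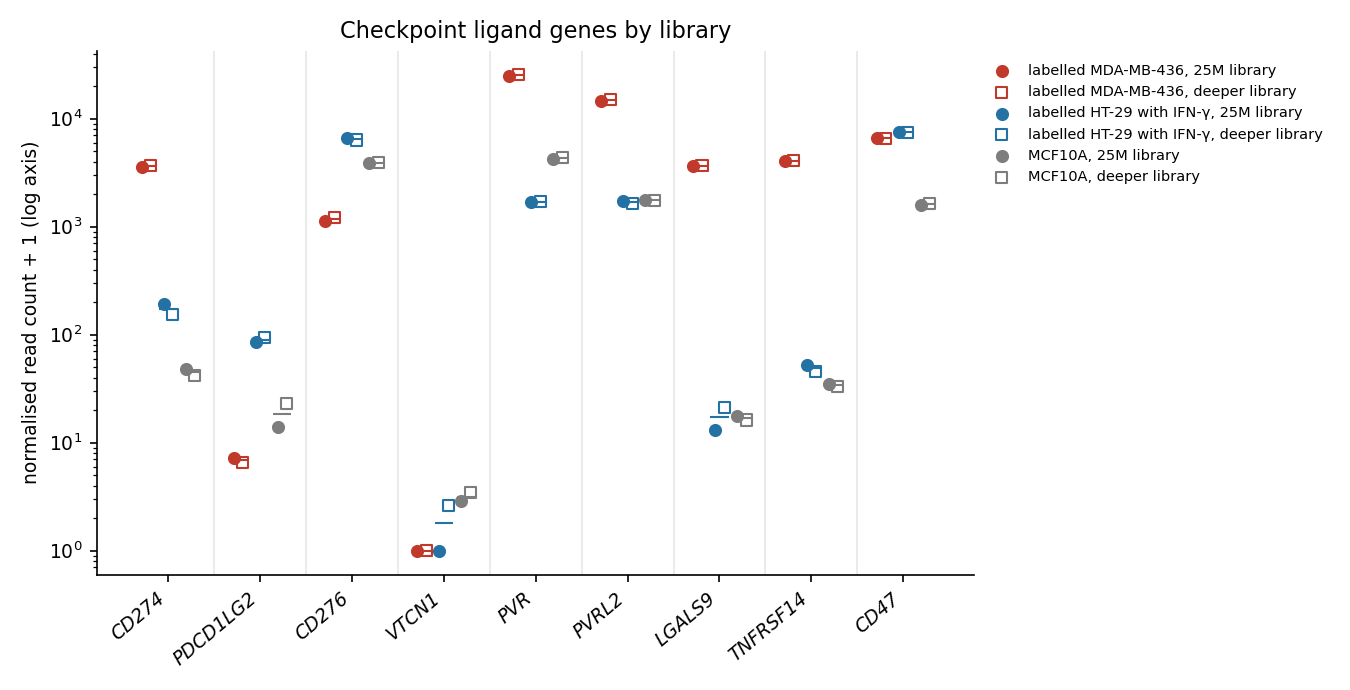
Normalised read count plus 1, on a log axis, of the 9 checkpoint ligand genes in each of the 6 libraries; circles are the 25M libraries, squares the deeper ones, and short lines the mean of a line. LGALS9, TNFRSF14 and CD274 stand at 3561 or more in both MDA-MB-436-labelled libraries and at 192 or less in the other 4, while PDCD1LG2 is lowest in the MDA-MB-436-labelled libraries.

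Against MCF10A the 2 ligands of PD-1 went opposite ways in the MDA-MB-436-labelled libraries, and both were higher in the HT-29-labelled ones. CD274 (gene ID 29126, chromosome 9) stood at 3561 and 3689 normalised counts in the MDA-MB-436-labelled libraries, at 192 and 153 in the HT-29-labelled ones, and at 46.8 and 41.2 in MCF10A. The 3 lines did not overlap, and the order was the same at both depths. The mean was 3625 ± 90.4 from 7720 reads in the MDA-MB-436-labelled libraries, 173 ± 27.4 from 408 reads in the HT-29-labelled ones and 44.0 ± 3.94 from 109 reads in MCF10A (SD, n = 2 libraries each). Bulk RNA does not tell fewer expressing cells from less RNA per cell. Against MCF10A, CD274 was 86.3-fold higher in pooled reads in the MDA-MB-436-labelled libraries (95% counting interval 71.5 to 105.3), a log2 fold change of 6.33 (SE 0.122, limma adjusted p = 2.01e-09). In the HT-29-labelled libraries, which carry the IFN-γ label, it was 3.86-fold higher than in MCF10A (interval 3.12 to 4.81, log2 fold change 1.94, limma adjusted p = 1.79e-06). The HT-29-labelled libraries thus lay much nearer to MCF10A, and their CD274 was 22.4-fold lower than in the MDA-MB-436-labelled libraries (interval 20.3 to 24.8, log2 fold change -4.39, limma adjusted p = 1.27e-08). No IFN-γ is recorded for the MDA-MB-436-labelled libraries.

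The promoter of CD274 is shown because letters known from interferon response elements lie in it. The RefSeq window of GRCh38.p14, chr9:5450292-5450591 on the plus strand, runs from 250 bases before the gene's start to 50 after it.
CD274: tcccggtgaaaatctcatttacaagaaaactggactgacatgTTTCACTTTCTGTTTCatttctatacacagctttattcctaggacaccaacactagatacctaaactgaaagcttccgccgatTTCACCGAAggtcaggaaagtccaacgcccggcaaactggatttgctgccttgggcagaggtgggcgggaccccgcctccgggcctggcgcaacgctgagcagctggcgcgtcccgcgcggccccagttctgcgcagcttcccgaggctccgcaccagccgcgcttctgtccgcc
The capitals mark matches, on either strand, to the ISRE-like letters (GAAA, any 2 bases, GAAA) and the GAS-like letters TTCNNNGAA, where ISRE stands for interferon-stimulated response element and GAS for gamma-activated site. There were 2 ISRE-like matches, from base -208 to -199 and from -202 to -193, which overlap each other and read on the minus strand, and 1 GAS-like match from -125 to -117, which reads on both strands and overlaps no other. ISRE-like letters were found in 3.57% of 35116 RefSeq promoter windows of this length and GAS-like letters in 7.66%. Of the 9 genes 8 have a window in the table, and PDCD1LG2 has none there. A match is a description of letters and shows no binding.

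PDCD1LG2 (gene ID 80380), the neighbour of CD274 on chromosome 9, stood at 6.18 and 5.54 normalised counts in the MDA-MB-436-labelled libraries, 84.0 and 93.6 in the HT-29-labelled ones, and 13.1 and 22.1 in MCF10A. It was thus lowest where CD274 was highest, and no line overlapped another. Reads were few, with 12 in the MDA-MB-436-labelled libraries, 227 in the HT-29-labelled ones and 52 in MCF10A. Against MCF10A it was 3.56-fold lower in the MDA-MB-436-labelled libraries (interval 1.87 to 7.32, log2 fold change -1.40, SE 0.306, limma adjusted p = 0.00310) and 4.50-fold higher in the HT-29-labelled ones (interval 3.32 to 6.21, log2 fold change 2.31, limma adjusted p = 1.74e-04). The lower call in the MDA-MB-436-labelled libraries ended with a pseudocount of 8, at a log2 fold change of -0.86 (limma adjusted p = 0.00165), and also ended against a null fold of 2 by limma's treat (adjusted p = 0.260). In the HT-29-labelled libraries it was 16.0-fold higher than in the MDA-MB-436-labelled ones (interval 8.98 to 31.4, log2 fold change 3.71, limma adjusted p = 8.21e-06). In RPKM, which scales reads by transcript length and library size, CD274 exceeded PDCD1LG2 377.9-fold and 436.2-fold in the MDA-MB-436-labelled libraries, 1.498-fold and 1.07-fold in the HT-29-labelled ones, and 2.34-fold and 1.22-fold in MCF10A. PD-L1 transcripts therefore far outnumbered those of PD-L2 in the MDA-MB-436-labelled libraries, and the levels of both were close in the other lines. PDCD1LG2 is best known from macrophages and dendritic cells, and the summed level of 12 leukocyte markers was 896 and 995 in the MDA-MB-436-labelled libraries, 5132 and 4791 in the HT-29-labelled ones, and 1228 and 1276 in MCF10A, with PTPRC, which marks all leukocytes, at most 10.3 in any library. CD68 alone averaged 4293 in the HT-29-labelled libraries. CD14 averaged 80.1 in the MDA-MB-436-labelled libraries, 364 in the HT-29-labelled ones and 474 in MCF10A. In the same order ITGAM averaged 27.4, 168 and 8.61, and ITGAX 7.30, 117 and 3.59. CSF1R averaged 3.29, 6.69 and 81.7, and HLA-DOB 144, 7.84 and 22.4. CD3D and CD2 were at 0 throughout, CD3E was at most 1.47, and the part of these markers in the result was not tested. RefSeq places a long non-coding RNA, INCR1, across both genes, and without a stated strand setting its reads cannot be told apart from theirs.

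The nearest genes on either side of the pair were not called in the MDA-MB-436-labelled libraries against MCF10A, where CD274 was 86.3-fold higher. C9orf46, the neighbour before CD274 (PLGRKT in RefSeq), averaged 687 ± 9.76 normalised counts there, 1837 ± 100.3 in the HT-29-labelled libraries, and 550.1 ± 10.0 in MCF10A. Its log2 fold change in the MDA-MB-436-labelled libraries against MCF10A was 0.32, under the fold threshold (limma adjusted p = 6.40e-04). KIAA1432 (RIC1 in RefSeq), the neighbour after PDCD1LG2, had -0.70 (limma adjusted p = 1.03e-06), ERMP1, an endoplasmic reticulum metallopeptidase, had 0.24 and RANBP6 had -0.66, all under the fold threshold. KIAA2026 (BRD10 in RefSeq) was higher at 1.15, INSL4 was higher at 1.27 on 29 reads against 15, and RLN2, which encodes a relaxin hormone, was lower at -3.93 on 2 reads against 51. INSL4 passed the filter only through the MDA-MB-436-labelled libraries and RLN2 only through those of MCF10A. Their calls are thus not independent of the filter. Higher than in MCF10A in the HT-29-labelled libraries were C9orf46 (log2 fold change 1.74), KIAA2026 (1.52) and RANBP6 (1.62), beside 1.94 for CD274 and 2.31 for PDCD1LG2. KIAA1432 (0.52) and ERMP1 (-0.07) were not called there, and INSL4, RLN2 and MLANA were lower on at most 51 reads in either line.

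**Figure D2:**
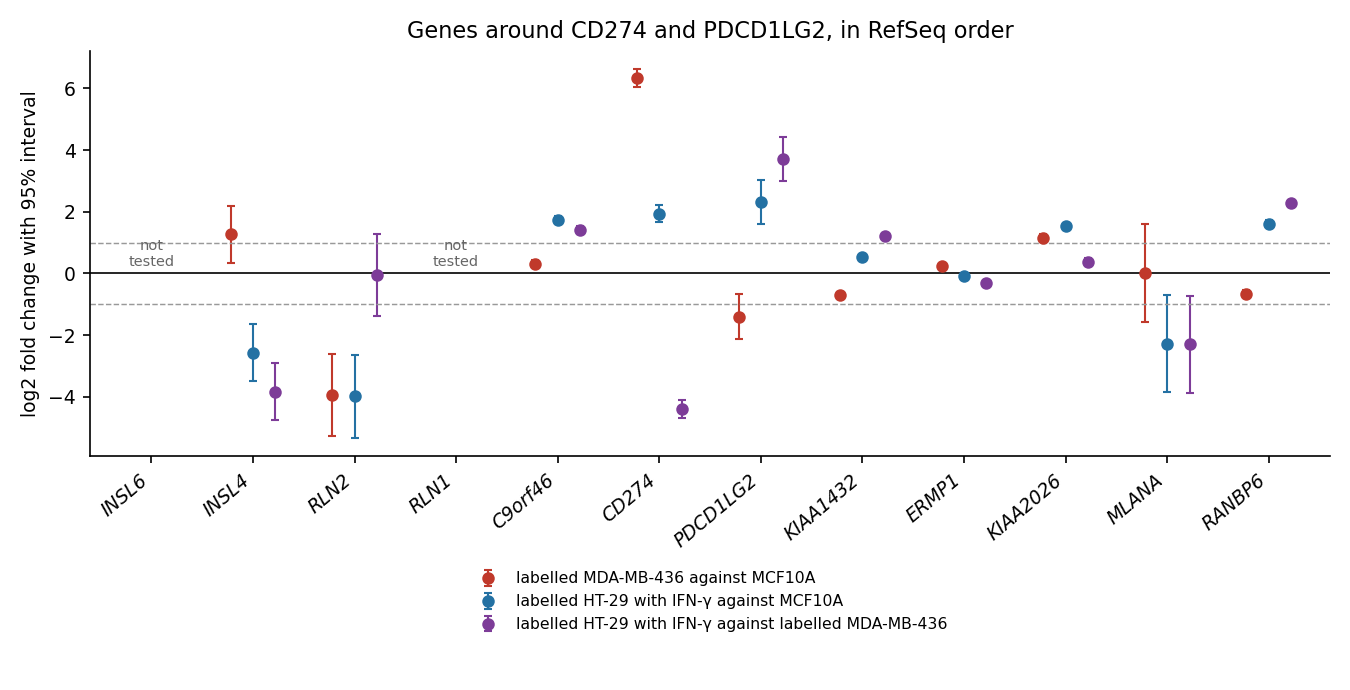
Log2 fold changes with 95% intervals from limma of 12 genes of chromosome 9, set side by side in RefSeq gene order and not to scale, for the 3 comparisons; dashed lines mark the fold threshold, and INSL6 and RLN1 did not pass the filter. CD274 stands at 6.33 for the MDA-MB-436-labelled libraries against MCF10A, and its neighbours C9orf46 and PDCD1LG2 at 0.32 and -1.40.

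Of the other B7 genes, CD276 (gene ID 80381, chromosome 15), which encodes B7-H3, a ligand that restrains T cells through a receptor not yet agreed on, was measured in every line. It stood at 1128 and 1205 normalised counts in the MDA-MB-436-labelled libraries, 6603 and 6336 in the HT-29-labelled ones, and 3893 and 3949 in MCF10A. The lines did not overlap, and the MDA-MB-436-labelled libraries held the lowest level of CD276 while holding the highest of CD274. Against MCF10A it was 3.32-fold lower in the MDA-MB-436-labelled libraries (interval 3.17 to 3.46, log2 fold change -1.75, SE 0.0402, limma adjusted p = 4.85e-09). In the HT-29-labelled libraries the log2 fold change against MCF10A was 0.72 (95% interval 0.63 to 0.82, limma adjusted p = 8.69e-07), under the fold threshold, and it passed at 1.03 when libraries were scaled by their size alone. CD276 was 5.40-fold higher in the HT-29-labelled libraries than in the MDA-MB-436-labelled ones (log2 fold change 2.47, limma adjusted p = 9.06e-10).

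VTCN1 (gene ID 79679, chromosome 1), which encodes B7-H4, was nearly absent. It had 0 reads in both MDA-MB-436-labelled libraries, 0 and 3 reads in the HT-29-labelled ones, and 1 and 5 in MCF10A, or 0, at most 1.64 and at most 2.45 normalised counts. A count of 0 allows up to 3 reads over a group. With that floor the level in the MDA-MB-436-labelled libraries was 1.64-fold lower than in MCF10A. The 6 reads of MCF10A are too few for this to be a bound, and the gene entered no test. With the filter lifted, limma called VTCN1 lower in the MDA-MB-436-labelled libraries, at a log2 fold change of -1.66 (limma adjusted p = 0.0206). That call rests on 0 reads against 6.

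The nectin family members PVR and PVRL2 were both higher in the MDA-MB-436-labelled libraries than in MCF10A. PVR (gene ID 5817, chromosome 19), the poliovirus receptor, which binds TIGIT and the activating receptor CD226, stood at 24990 and 25565 normalised counts in the MDA-MB-436-labelled libraries, 1680 and 1710 in the HT-29-labelled ones, and 4253 and 4387 in MCF10A. The 3 lines were far apart compared with their libraries. PVR was 5.83-fold higher in the MDA-MB-436-labelled libraries than in MCF10A (interval 5.72 to 5.96, log2 fold change 2.55, SE 0.0281, limma adjusted p = 1.73e-10). It was 2.56-fold lower in the HT-29-labelled libraries than in MCF10A (interval 2.47 to 2.65, log2 fold change -1.35, limma adjusted p = 5.03e-09), the only one of the 8 tested genes called lower in that comparison. In the HT-29-labelled libraries it was 14.9-fold lower than in the MDA-MB-436-labelled ones (log2 fold change -3.90, limma adjusted p = 3.44e-11). CEACAM19, which overlaps PVR in RefSeq, was at most 140 normalised counts in any library.

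PVRL2 (NECTIN2 in RefSeq, gene ID 5819, chromosome 19), whose product binds TIGIT and PVRIG, stood at 14583 and 15058 normalised counts in the MDA-MB-436-labelled libraries, 1725 and 1625 in the HT-29-labelled ones, and 1768 and 1740 in MCF10A. It was 8.56-fold higher in the MDA-MB-436-labelled libraries than in MCF10A (interval 8.30 to 8.84, log2 fold change 3.08, SE 0.0368, limma adjusted p = 2.33e-10). The HT-29-labelled libraries were close to MCF10A, with a log2 fold change of -0.07 (95% interval -0.15 to 0.02, limma adjusted p = 0.125). This sign turned with scaling by library size alone, to 0.24 (limma adjusted p = 2.30e-04), a scaling that also moved the median of all genes tested to 0.43. PVRL2 was 9.05-fold lower in the HT-29-labelled libraries than in the MDA-MB-436-labelled ones (log2 fold change -3.15, limma adjusted p = 2.15e-10). In RPKM, PVR stood at 0.744 and 0.737 of PVRL2 in the MDA-MB-436-labelled libraries, 0.423 and 0.457 in the HT-29-labelled ones, and 1.04 and 1.09 in MCF10A, so the balance of the pair differed between lines by more than between their libraries.

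LGALS9 and TNFRSF14 were each high in the MDA-MB-436-labelled libraries and low in the other 4. LGALS9 (gene ID 3965, chromosome 17) encodes galectin-9, a sugar-binding protein and ligand of TIM-3. It stood at 3615 and 3686 normalised counts in the MDA-MB-436-labelled libraries, 12.0 and 20.2 in the HT-29-labelled ones, and 16.9 and 15.2 in MCF10A. The HT-29-labelled libraries overlapped those of MCF10A. LGALS9 was 235.9-fold higher in the MDA-MB-436-labelled libraries than in MCF10A (interval 173.1 to 330.4, log2 fold change 7.75, SE 0.228, limma adjusted p = 1.81e-08), from 7741 reads against 40. The HT-29-labelled libraries differed from MCF10A by a log2 fold change of -0.03 (95% interval -0.57 to 0.50, limma adjusted p = 0.896) on 45 reads against 40, and from the MDA-MB-436-labelled ones by -7.78 (limma adjusted p = 1.72e-08). Its near-identical copies LGALS9B and LGALS9C had at most 10 reads in the libraries of any line, so few reads were assigned to them, and how reads shared by the copies were counted is not given in the sources used here.

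The promoter of LGALS9, from chr17:27630938-27631237 on the plus strand of GRCh38.p14 (RefSeq), is shown because it was the other window among the 8 with an ISRE-like match.
LGALS9: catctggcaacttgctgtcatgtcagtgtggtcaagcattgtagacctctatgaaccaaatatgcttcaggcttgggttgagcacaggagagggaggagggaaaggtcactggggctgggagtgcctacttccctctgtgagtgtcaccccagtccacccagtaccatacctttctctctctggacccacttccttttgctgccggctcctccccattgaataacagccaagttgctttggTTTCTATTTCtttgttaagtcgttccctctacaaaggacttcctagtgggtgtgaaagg
The capitals mark 1 ISRE-like match on the minus strand that spans the gene's start, from base -9 to 1, and it overlaps no GAS-like match. The windows of the remaining genes held neither set of letters, which says only that these letters are not in these windows.

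TNFRSF14 (gene ID 8764, chromosome 1) encodes HVEM, a receptor of the TNF family that acts as the ligand of the inhibitory receptors BTLA and CD160. It stood at 4076 and 4097 normalised counts in the MDA-MB-436-labelled libraries, 51.0 and 44.9 in the HT-29-labelled ones, and 33.7 and 32.4 in MCF10A. No line overlapped another. TNFRSF14 was 125.2-fold higher in the MDA-MB-436-labelled libraries than in MCF10A (interval 101.0 to 157.2, log2 fold change 6.91, SE 0.106, limma adjusted p = 6.81e-10). Its log2 fold change in the HT-29-labelled libraries against MCF10A was 0.52 (95% interval 0.27 to 0.77, limma adjusted p = 0.00206), under the fold threshold, on 116 reads against 84. Against the MDA-MB-436-labelled libraries it was 88.0-fold lower in the HT-29-labelled ones (log2 fold change -6.39, limma adjusted p = 9.58e-10). LOC115110, the antisense gene that RefSeq names TNFRSF14-AS1, stood at 266 and 327 normalised counts in the MDA-MB-436-labelled libraries, 0 and 0 in the HT-29-labelled ones, and 0 and 0.491 in MCF10A. Without a stated strand setting, reads of this gene and of TNFRSF14 cannot be told apart.

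CD47 (gene ID 961, chromosome 3), the signal that restrains phagocytosis, was high in both cancer lines. It stood at 6610 and 6523 normalised counts in the MDA-MB-436-labelled libraries, 7452 and 7432 in the HT-29-labelled ones, and 1599 and 1636 in MCF10A. Both sets of libraries lay well above MCF10A and near each other. CD47 was 4.02-fold higher in the MDA-MB-436-labelled libraries than in MCF10A (interval 3.88 to 4.16, log2 fold change 2.02, SE 0.0266, limma adjusted p = 3.45e-10) and 4.57-fold higher in the HT-29-labelled ones (interval 4.42 to 4.72, log2 fold change 2.201, limma adjusted p = 4.69e-10). The HT-29-labelled libraries exceeded the MDA-MB-436-labelled ones by a log2 fold change of 0.18 (95% interval 0.12 to 0.24, limma adjusted p = 3.00e-04), under the fold threshold. It was the only one of the 8 tested genes not called between these lines.

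**Figure D3:**
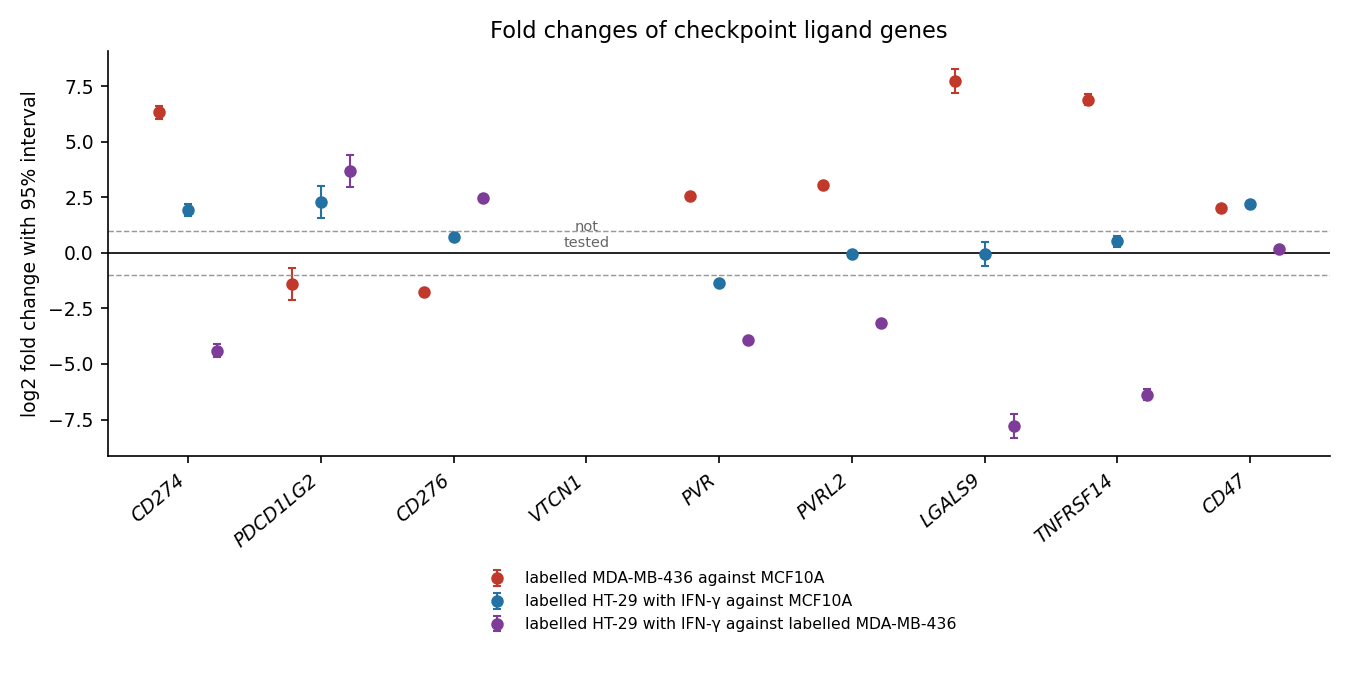
Log2 fold changes with 95% intervals from limma of the checkpoint ligand genes in the 3 comparisons, with dashed lines at the fold threshold; VTCN1 did not pass the filter. LGALS9, TNFRSF14 and CD274 stand at 7.75, 6.91 and 6.33 for the MDA-MB-436-labelled libraries against MCF10A, and CD47 stands at 2.02 and 2.201 against MCF10A.

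Set per transcript length, the order of the ligands differed between lines. The MDA-MB-436-labelled libraries were led by PVRL2 at a mean RPKM of 171.7 and PVR at 127.1, followed by TNFRSF14 (RPKM 69.6), LGALS9 (63.7), CD47 (35.8), CD274 (28.5), CD276 (11.01) and PDCD1LG2 (0.0703), with VTCN1 at 0. PVRL2 and PVR held 33.8% and 25.1% of the summed RPKM of the 9 genes, 507.4. The HT-29-labelled libraries were led by CD276 at an RPKM of 76.6 and CD47 at 50.9, which held 45.9% and 30.5% of a sum of 166.9. PVRL2 (24.3) and PVR (10.7) came next, and CD274 (1.70), PDCD1LG2 (1.34), TNFRSF14 (1.02), LGALS9 (0.353) and VTCN1 (0.0114) were low. MCF10A was also led by CD276, at an RPKM of 37.4 and 41.4% of a sum of 90.3, followed by PVR (22.0), PVRL2 (20.6) and CD47 (8.92), with the remaining 5 genes under 0.6. CD274 was thus the sixth ligand of 9 in the MDA-MB-436-labelled libraries, despite its large fold change. No 2 neighbours in these orders overlapped between their libraries, although PVR exceeded PVRL2 in MCF10A only 1.07-fold. LGALS9 and PDCD1LG2 were nearly equal in the deeper MCF10A library, at RPKM of 0.2689 and 0.2685 on 31 and 45 reads. Differences between genes were not tested. The RPKM rows of PVR, PVRL2, TNFRSF14 and VTCN1 were out of register with their symbols as deposited and were put back before use.

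**Figure D4:**
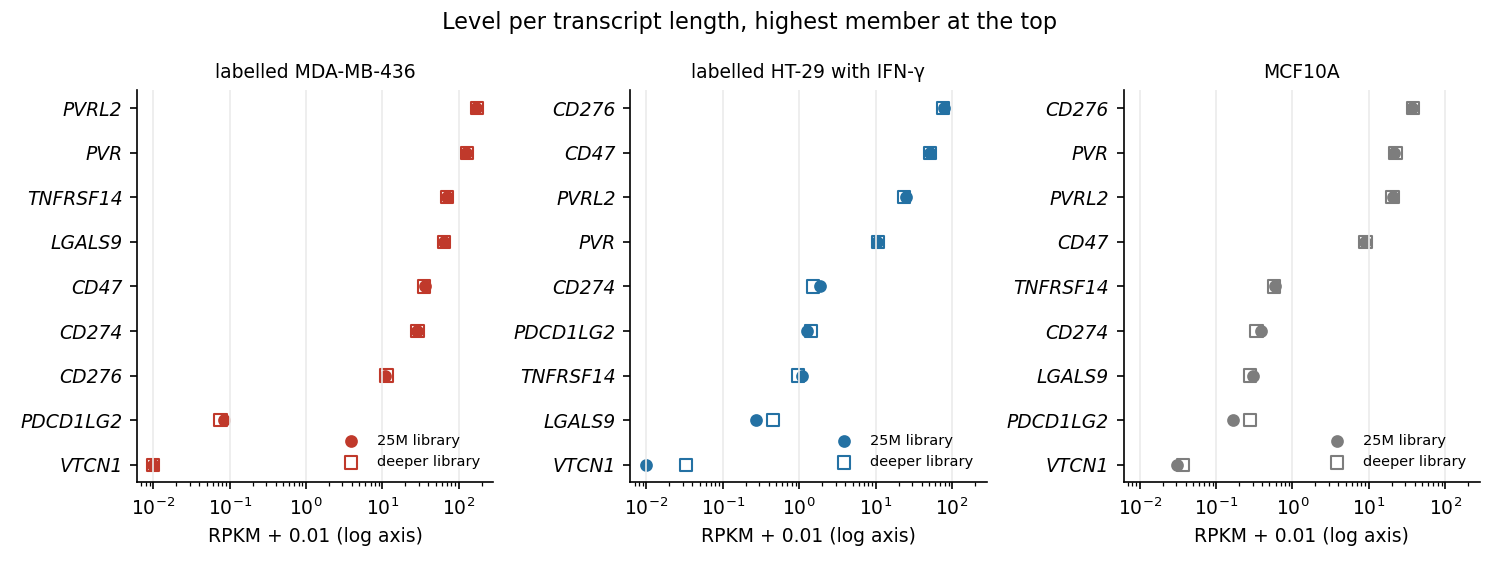
RPKM plus 0.01, on a log axis, of the 9 genes in each line, ordered from the highest at the top; circles are the 25M libraries and squares the deeper ones. PVRL2 and PVR lead in the MDA-MB-436-labelled libraries, and CD276 leads in the HT-29-labelled ones and in MCF10A.

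Of 15 other genes of the B7 and butyrophilin families, 12 were tested. In the MDA-MB-436-labelled libraries 10 were higher than in MCF10A and 1, CD86, was lower, with a median log2 fold change of 2.26. Of all genes tested, 25.6% were higher and 23.7% lower in this comparison. The 10 include BTNL3 on 3 reads against 0 and BTNL8 on 13 against 0. Both passed the filter only through the HT-29-labelled libraries. CD86 rests on 3 reads against 35 and passed only through MCF10A. BTNL9 averaged 1161 ± 12.4 normalised counts in the MDA-MB-436-labelled libraries, 395 ± 38.8 in the HT-29-labelled ones and 0.936 ± 1.32 in MCF10A. HHLA2, a ligand of T cells and natural killer cells, had 269 reads in the MDA-MB-436-labelled libraries and 0 in MCF10A, so it was at least 109.3-fold higher with a floor of 3 reads over the group. It passed the filter only through the MDA-MB-436-labelled libraries. Against MCF10A 7 were higher in the HT-29-labelled libraries and 2 were lower, CD86 and BTN3A2, at a median of 1.95. The shares of all genes were 28.4% and 18.1%. BTNL3 and BTNL8 are among the 7, on 80 and 42 reads against 0, and CD86 rests on 2 reads against 35. Against the MDA-MB-436-labelled libraries, 2 were higher and 5 lower in the HT-29-labelled ones, at a median of -0.85. The 2 were BTNL3 and BTNL8, and 29.9% and 23.5% of all genes were called in these directions. Several of the B7 and butyrophilin genes are near-identical copies, and their counts are uncertain where the authors' counting could split reads.

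Of the other nectins and nectin-like genes 6 of 7 were tested. In the MDA-MB-436-labelled libraries 2 of the 6, CADM3 and PVRL1, were lower than in MCF10A, at a median log2 fold change of -0.59. The others did not pass. Of all genes tested, 25.6% were higher and 23.7% lower in this comparison. PVRL1, an adhesion molecule, averaged 3623 ± 17.8 normalised counts in the MDA-MB-436-labelled libraries, 824 ± 58.4 in the HT-29-labelled ones and 18794 ± 28.3 in MCF10A, with log2 fold changes of -2.37 and -4.51 against MCF10A (limma adjusted p = 2.00e-09 and 2.07e-10). The HT-29-labelled libraries had 2 higher and 3 lower than MCF10A, beside 28.4% and 18.1% of all genes. CADM1, an adhesion molecule that binds the receptor CRTAM, stood at 2721 and 2647 in the HT-29-labelled libraries, 0 and 0.616 in the MDA-MB-436-labelled ones, and 1.87 and 0.491 in MCF10A. It is among the 2 higher genes and passed the filter only through the HT-29-labelled libraries.

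Of 12 other galectins 6 were tested, with 2 higher and 1 lower in the MDA-MB-436-labelled libraries than in MCF10A. Of all genes tested, 25.6% were higher and 23.7% lower there. In the HT-29-labelled libraries 1 was higher and 2 were lower than in MCF10A, beside 28.4% and 18.1% of all genes. The 1 was LGALS4 on 10 reads against 4, which passed the filter only through the MDA-MB-436-labelled libraries. The 2, LGALS2 and LGALS7B, rest on 6 reads against 41 and 10 against 24. LGALS4, an intestinal galectin, averaged 32713 ± 1617 normalised counts in the MDA-MB-436-labelled libraries, 3.69 ± 0.974 in the HT-29-labelled ones and 0.982 ± 1.39 in MCF10A. LGALS1, which encodes galectin-1, an inhibitor of T cells, went the other way in the MDA-MB-436-labelled libraries, at 74.7 ± 19.5 there, 21156 ± 1285 in the HT-29-labelled ones and 31229 ± 222.8 in MCF10A. Its log2 fold change was -8.71 in the MDA-MB-436-labelled libraries against MCF10A (limma adjusted p = 1.79e-07) and -0.56 in the HT-29-labelled ones.

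Co-stimulatory genes of the TNF and TNF receptor superfamilies, most of them ligands beside the receptors CD40 and LTBR, were mostly lower in the MDA-MB-436-labelled libraries. Of 8 tested genes 1 was higher and 6 lower than in MCF10A there, at a median log2 fold change of -3.15. Of all genes tested, 25.6% were higher and 23.7% lower. The 6 include TNFSF4 on 0 reads against 43, TNFSF14 on 0 against 53 and LTB on 2 against 10. LTB passed the filter only through the HT-29-labelled libraries, and TNFSF14 would not have passed without those of MCF10A. CD70, the ligand of CD27, had 1 read in the MDA-MB-436-labelled libraries and averaged 850 ± 23.1 normalised counts in the HT-29-labelled ones and 2260 ± 84.6 in MCF10A. TNFSF9, the ligand of 4-1BB, had a log2 fold change of -4.69 (limma adjusted p = 3.85e-09). TNFSF15, the ligand of DR3, was the 1 higher gene, at 3250 ± 97.6 in the MDA-MB-436-labelled libraries, 2.67 ± 1.65 in the HT-29-labelled ones and 80.1 ± 17.9 in MCF10A. Against MCF10A 3 were higher and 4 lower in the HT-29-labelled libraries, with TNFSF4, which encodes OX40 ligand, at a log2 fold change of 3.37. The shares of all genes were 28.4% and 18.1%. LTB is among the 3, on 108 reads against 10, and TNFSF14 is among the 4, on 20 against 53. Neither of these calls is independent of the filter.

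Most receptor genes of leukocytes were too low to test. Of 14 such genes 3, SIRPA, PVRIG and LAG3, passed the filter, and CTLA4, ICOS and TIGIT had 0 reads in all 6 libraries, while PDCD1, which encodes PD-1, had 6 reads in the MDA-MB-436-labelled libraries, 2 in the HT-29-labelled ones and 0 in MCF10A. SIRPA, which encodes the CD47 receptor SIRPα, stood at 12.4 and 7.39 normalised counts in the MDA-MB-436-labelled libraries, 1316 and 1237 in the HT-29-labelled ones, and 2732 and 2654 in MCF10A. CD47 and its receptor gene were both measured in the HT-29-labelled libraries, and SIRPA was near 0 in the MDA-MB-436-labelled ones (log2 fold change against MCF10A -7.99, limma adjusted p = 5.79e-09). PVRIG, which encodes a receptor of PVRL2, stood at 24.7 and 29.6 normalised counts in the MDA-MB-436-labelled libraries, 28.5 and 34.5 in the HT-29-labelled ones, and 13.1 and 11.3 in MCF10A. It was higher than in MCF10A in both lines, at log2 fold changes of 1.09 and 1.30 from low counts (limma adjusted p = 0.00479 and 0.00191). LAG3, another inhibitory receptor of T cells, averaged 23.0 ± 0.537 in the MDA-MB-436-labelled libraries, 6.14 ± 4.04 in the HT-29-labelled ones and 3.88 ± 2.84 in MCF10A. It passed the filter only through the MDA-MB-436-labelled libraries, where it was called higher than in MCF10A. That call (log2 fold change 2.43, limma adjusted p = 0.00365) rests on 49 reads against 13 and is not independent of the filter.

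Most of the 12 genes of the IFN-γ pathway described here, all of them tested, were higher in the MDA-MB-436-labelled libraries than in MCF10A. In that comparison 11 were higher and 1, IFNGR2, did not pass, at a median log2 fold change of 2.65. Of all genes tested, 25.6% were higher in it. Against MCF10A 6 were higher in the HT-29-labelled libraries and 6 did not pass, at a median of 1.13. Among all genes 28.4% were higher. The IFN-γ label belongs to the HT-29-labelled libraries. In these 8 of the 12 were lower than in the MDA-MB-436-labelled libraries and 1, IFNGR2, was higher. Of all genes, 23.5% were lower and 29.9% higher between these lines. IRF1 stood at 79637 and 79442 normalised counts in the MDA-MB-436-labelled libraries, 2234 and 2194 in the HT-29-labelled ones, and 393 and 414 in MCF10A. IRF1 had the order of CD274, with no overlap between lines. JAK2, which lies on chromosome 9 with CD274, had log2 fold changes against MCF10A of 3.69 in the MDA-MB-436-labelled libraries and 1.81 in the HT-29-labelled ones (limma adjusted p = 2.89e-10 and 1.34e-08). SOCS3, a feedback inhibitor, did not follow this order, at log2 fold changes of 6.39 and 6.61 against MCF10A.

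**Figure D5:**
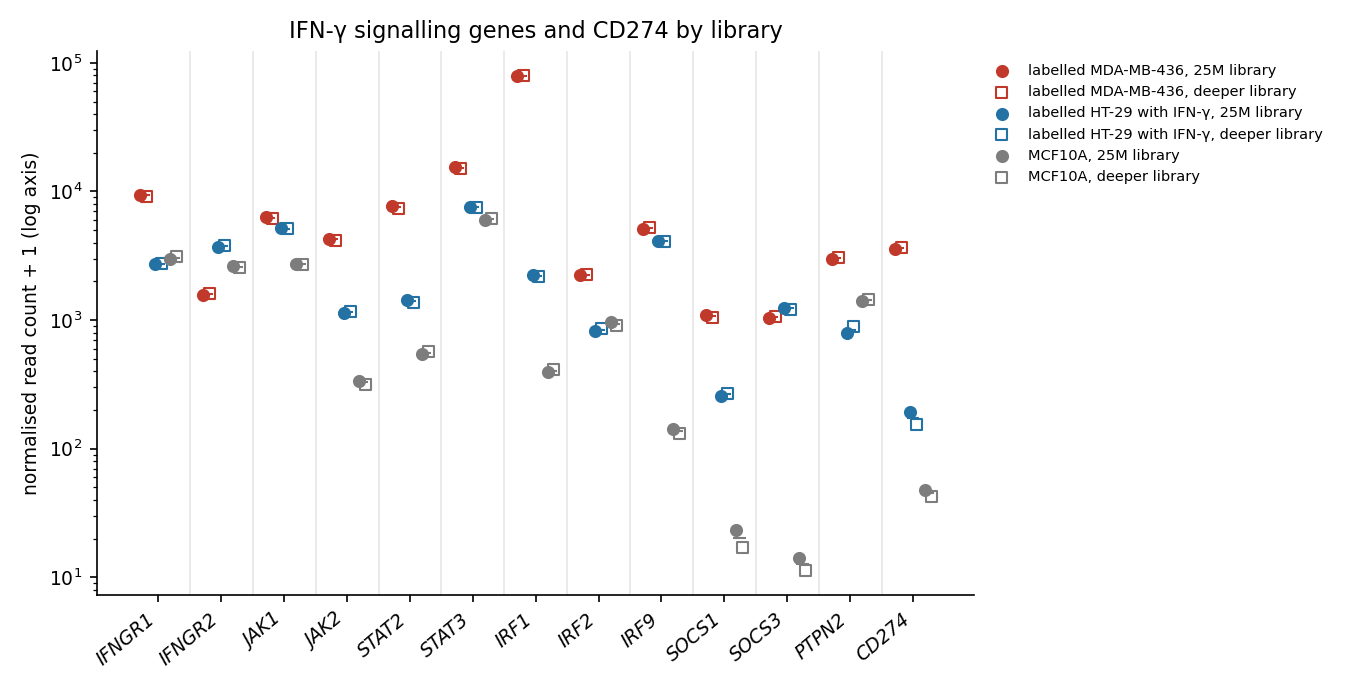
Normalised read count plus 1, on a log axis, of 12 genes of IFN-γ signalling and of CD274 in each of the 6 libraries; circles are the 25M libraries, squares the deeper ones, and short lines the mean of a line. IRF1, JAK2, SOCS1 and CD274 are highest in the MDA-MB-436-labelled libraries and lowest in MCF10A, while IFNGR2 is lowest in the MDA-MB-436-labelled ones.

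Of 9 genes that modify, bind or stabilise the ligands, 4 were called in the MDA-MB-436-labelled libraries against MCF10A, where 49.2% of all genes were, and 3 in the HT-29-labelled ones against MCF10A, where 46.5% were. CMTM6, which protects PD-L1 from degradation, stood at 2221 and 2196 normalised counts in the MDA-MB-436-labelled libraries, 3116 and 3169 in the HT-29-labelled ones, and 2217 and 2161 in MCF10A, with log2 fold changes against MCF10A of 0.01 (limma adjusted p = 0.724) and 0.52. In the first of these comparisons 1 gene, SPOP, an adaptor of the ubiquitin ligase that targets PD-L1, was higher, and 3 were lower; in the second all 3 called genes were lower. QPCTL, the enzyme that modifies CD47 for binding of SIRPα, was lower in both lines, with log2 fold changes of -1.86 and -2.11, while CD47 itself was higher in both.

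Of 10 tested genes for other inhibitory molecules 6 were higher and 3 lower in the MDA-MB-436-labelled libraries than in MCF10A. Of all genes tested, 25.6% were higher and 23.7% lower there. In the HT-29-labelled libraries 2 were higher and 5 lower than in MCF10A, beside 28.4% and 18.1% of all genes. The 2, IDO1 and CD200, rest on 30 and 4 reads against 0. Both passed the filter only through the MDA-MB-436-labelled libraries, as did HLA-G. These genes are also among the 6 called higher there, and those calls are not independent of the filter. IDO1, an enzyme that depletes tryptophan, had 2674 reads in the MDA-MB-436-labelled libraries, 30 in the HT-29-labelled ones and 0 in MCF10A. CEACAM1, an inhibitory adhesion molecule, averaged 12465 ± 157.6 normalised counts in the MDA-MB-436-labelled libraries, 57.8 ± 9.59 in the HT-29-labelled ones and 126 ± 2.56 in MCF10A. TGFB1, an inhibitory cytokine, was lower in both lines, with log2 fold changes of -2.16 and -1.73.

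The genes whose pattern over the 6 libraries was most like that of each ligand were ranked by the root mean square difference of their centred log2 values among 11938 genes with a mean normalised count of at least 100. WARS, a tryptophan tRNA synthetase known to be induced by IFN-γ, was nearest to CD274 at 0.129, with log2 fold changes of 6.53, 2.07 and -4.46 in the 3 comparisons, beside 6.33, 1.94 and -4.39 for CD274. CYP2S1 (0.224) and H1F0 (0.227) came next. For PDCD1LG2 the nearest gene was LOC374443 (0.153), for CD276 NOTCH2NL (0.0269), for PVR SYTL1 (0.0585), for PVRL2 TRIB3 (0.0293), for LGALS9 CARD9 (0.239), and for TNFRSF14 HLA-G (0.222), whose reads can be shared with other HLA genes. With 3 lines, many genes can share a pattern by line alone, so the likeness is a description.

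Paired libraries of a line were close for the ligands: in the 16 cases of a ligand and a line with a mean of at least 100 normalised counts, the deeper library stood at 0.798 to 1.07 times the 25M one. The low values rest on few reads: PDCD1LG2 and VTCN1 in every line, LGALS9 and TNFRSF14 in the HT-29-labelled libraries and MCF10A, and CD274 in MCF10A, with 109 reads.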

How the data were processed

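Per the file headers, each of the 6 deposited tables gives normalised counts and RPKM by gene symbol. The submitters' processing notes name FastQC, STAR 2.2.0, HTSeq and the build hg19 without their roles; the annotation used and whether counting was stranded is not given in the sources used here. The deposited normalised counts are a signal equal to reads times 1 factor per library: 100% of values above 0 were whole multiples of that step within a tolerance of 0.001. In the deposited RPKM column, values stood beside the wrong symbol in 3544 of 23368 rows, 15.17%, and in 0 after case-insensitive reordering; RPKM served only to compare genes within a line. The 28 rows with date-like symbols, 4 of them repeated, were left out, which kept 23340 genes.

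All genes entered 1 limma fit (trended, robust) of log2(normalised count + 1) over the 6 libraries with 3 residual degrees of freedom, for 15638 genes with at least 10 normalised counts in at least 2 libraries. Fold changes on this scale understate changes of low genes. Folds in words are ratios of pooled recovered reads with 95% exact (Clopper-Pearson) intervals that cover counting error only. On the recovered reads edgeR called 7772, 7365 and 8405 genes in the 3 comparisons, against 7701, 7265 and 8350 by limma. The labels' protocol speaks of sequencing in duplicate and names no separate cultures, so the spread behind the p-values may be technical only. The deeper MCF10A library is titled as 100M reads, has 50 as its sample type and held 69.5M. Between the libraries of a line the median chi-square was 0.684 (MDA-MB-436-labelled), 0.714 (HT-29-labelled) and 0.556 (MCF10A), where sampling alone gives 0.455.

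The ligands, gene lists and tests were chosen with earlier results of these data known. Named are all 9 ligands; up to 2 called genes per list, comparison and direction; JAK2, IRF1 and CMTM6; 5 genes on each side of the CD274 pair; and the nearest 3 genes in pattern, of which some are printed. Of the IFN-γ pathway list 1 gene is not reported here. TNFRSF14-AS1, CEACAM19, the LGALS9 promoter, SOCS1, CD40, LTBR, CTLA4, ICOS, TIGIT, PDCD1, CD3D, CD3E, CD2 and PTPRC were named after their values were seen. In RefSeq gene order and promoter windows the build is GRCh38.p14. Promoter letters were searched on both strands. The fit was tested on simulated data. There were 17 alternatives: edgeR, DESeq2, another pseudocount (8), filter, scaling, fit or covariate, and leaving out each library. Tools were Python 3.11.15 with pandas 2.3.3 and scipy 1.17.1, and R 4.3.3 with edgeR 4.0.16, DESeq2 1.42.0 and limma 3.58.1.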

Additional observations from a re-analysis of the deposited data

How the results depend on the processing

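Of 405 values of the ligands under 17 alternatives, 395 kept their direction and their side of the threshold, 7 changed sign, 2 of PDCD1LG2 lost their call and 1 of CD276 gained it. The log2 fold change of LGALS9 in the HT-29-labelled libraries against MCF10A, -0.03 as reported, changed sign to 0.13 with edgeR, 0.21 with DESeq2, 0.26 with scaling by library size alone and 0.00525 with the MCF10A libraries summed, and ran from -0.39 to 0.32 when single libraries were left out; it passed the threshold in none of these. PVRL2 in the same comparison changed sign to 0.24 with scaling by library size alone. That scaling moved the median log2 fold change of all genes from 0.131 to 0.435 there and from 0.0926 to 0.415 between the HT-29-labelled libraries and the MDA-MB-436-labelled ones, with 5376 higher and 1994 lower and with 5617 higher and 2822 lower calls. With at least 10 CPM in 2 libraries, which tests fewer genes (11138), 5079, 4390 and 5307 genes were called in the 3 comparisons. Called ligands numbered 7 to 9, 3 to 5 and 6 to 7 over all alternatives. The replicate numbers follow the labelled depth only; with that depth as a covariate, as a replicate block, 7715, 7271 and 8360 genes and 8, 4 and 7 ligands were called. Values of VTCN1, PDCD1LG2, LGALS9, TNFRSF14 and CD274 in the low lines are limited by depth.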
